A study of Mus musculus with 6 samples.

Results

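The Id genes Id1, Id2, Id3 and Id4 were examined in the embryonic mouse brain, through the probe sets that the array annotation assigns to exactly 1 of these symbols. The 4 genes, of 12393 genes named by the arrays, had 8 such probe sets, out of 22690 in each value table: 1 for Id1, 3 for Id2, 1 for Id3 and 3 for Id4. Each of 6 Affymetrix arrays held total RNA from the brain of 1 Swiss Albino embryo at E11.5. The control group was 3 brains from normal mothers, and the diabetic group was 3 brains from mothers with diabetes induced by streptozotocin (STZ), which destroys insulin-making cells of the pancreas. No other allele, genotype or agent is given for either group. The brains of the diabetic group were chosen as malformed ones, so the mother's diabetes cannot be told apart from the malformation. Replicates 1 and 2 of each group stand in a first value table (MOE430A chip), and replicate 3 of each group stands in a second (Mouse430A_2 chip). The labels do not say whether embryos shared a mother, so p-values measure the spread between these brains.

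Id proteins are helix-loop-helix proteins without the basic region that binds DNA. They pair with E proteins, the common partners of tissue-specific basic helix-loop-helix (bHLH) factors, and keep these partners from binding DNA together with proneural factors. In the developing brain they are known for holding neural progenitors in an undifferentiated, dividing state. Id1, Id2 and Id3 are classic early targets of bone morphogenetic protein (BMP) signalling through Smad1, Smad5 and Smad9. Id4 is abundant in neural precursors and can also oppose the other Id proteins by pairing with them.

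The sequences around the start sites of the Id genes are shown because Id genes are known as BMP targets and the paralogs are compared below. RefSeq promoter windows of 300 bases (250 before and 50 after the annotated start, build GRCm38) were held for 3 of the 4 genes, Id2, Id3 and Id4. They are printed 5′ to 3′ on the strand of the gene, and capitals mark matches to CANNTG, the E-box bound by bHLH dimers, and to GGCGCC, a GC-rich element bound by BMP Smads. Both motifs read the same on either strand, and no match overlapped another.
Id2 promoter, chr12:25096043-25096342, minus strand: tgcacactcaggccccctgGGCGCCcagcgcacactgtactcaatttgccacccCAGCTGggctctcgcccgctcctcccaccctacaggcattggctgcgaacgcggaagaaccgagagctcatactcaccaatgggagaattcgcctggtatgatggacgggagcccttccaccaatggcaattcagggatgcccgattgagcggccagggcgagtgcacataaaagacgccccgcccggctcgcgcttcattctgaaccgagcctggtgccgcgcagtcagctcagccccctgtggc
Id3 promoter, chr4:136143572-136143871, plus strand: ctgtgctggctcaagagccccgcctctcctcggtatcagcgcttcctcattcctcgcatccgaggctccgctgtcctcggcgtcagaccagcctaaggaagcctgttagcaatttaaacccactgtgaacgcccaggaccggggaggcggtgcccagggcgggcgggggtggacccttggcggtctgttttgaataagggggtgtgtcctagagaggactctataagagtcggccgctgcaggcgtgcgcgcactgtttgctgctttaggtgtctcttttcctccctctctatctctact
Id4 promoter, chr13:48260866-48261165, plus strand: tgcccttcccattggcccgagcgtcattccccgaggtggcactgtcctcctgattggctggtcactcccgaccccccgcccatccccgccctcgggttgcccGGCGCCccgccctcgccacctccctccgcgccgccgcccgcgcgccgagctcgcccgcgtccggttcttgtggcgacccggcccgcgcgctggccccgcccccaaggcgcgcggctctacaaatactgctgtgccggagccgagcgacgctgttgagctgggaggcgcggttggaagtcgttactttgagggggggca
The Id2 window held 1 CANNTG match and 1 GGCGCC match, starting 196 and 231 bases before the start site. The Id4 window held 1 GGCGCC match, 148 bases before it, and no CANNTG match, and the Id3 window held neither. Among 32851 RefSeq promoter windows of the same length, 72.3% held CANNTG and 11.9% held GGCGCC. The GC content was 63.3% for Id2, 60.0% for Id3 and 73.3% for Id4, against a median of 52.7% over all windows. These matches describe the letters of the windows, not binding.

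The unit throughout is the deposited probe set signal, a linear brightness with every array scaled to a trimmed mean of 500, and a log2 change is a difference in log2(signal + 32) between diabetic and control arrays taken within value tables. Differences were tested with limma over 13754 probe sets that name 1 gene and have a mean signal of at least 100, and all 8 Id probe sets were among them. The adjusted p is the Benjamini-Hochberg value over all of these. Pairs of arrays within a table had correlations of 0.930 to 0.970, and pairs across tables had 0.861 to 0.920. The markers of neural progenitors and of neurons listed for this brain tissue were present, with all 12 of each list above the signal minimum. Erythroid markers were also strong, with a summed signal of 43351 to 52274 in controls and 49708 to 57527 in the diabetic group over 9 genes. In the whole comparison limma called 0 of 13754 probe sets (0%) at an adjusted p under 0.05, with a smallest adjusted p of 0.265, and 1012 (7.36%) had an unadjusted p under 0.05.

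Id1, a BMP target found in progenitors and in vessel walls, was higher on each diabetic array than on the control arrays of its table. Control replicates 1 to 3 read 1383, 1504 and 832, and diabetic replicates 1 to 3 read 1722, 1809 and 1127. The groups did not overlap within either table, and the second table lay lower as a whole. Relative to the control mean of their table, the diabetic arrays stood at 119%, 125% and 136%. The log2 change was 0.33 ± 0.16 (SE, n = 3 per group), a 1.26-fold difference, split as 0.29 (first table) and 0.42 (second table). It did not pass in limma (unadjusted p = 0.0616, adjusted p = 0.680). As single arrays were left out the change ran from 0.29 to 0.38, and it was 0.32 without diabetic replicate 2. Over 15 distinct alternative fits the unadjusted p in limma ran from 0.0379 to 0.311 and was under 0.05 in 3 of them. Of all the tested probe sets, 9.02% had a smaller p in limma.

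Id3, the paralog most often found beside Id1, read 1553, 2149 and 2303 in the controls, in replicate order, and 2152, 2163 and 2449 in the diabetic group. The diabetic arrays were again all on the higher side of their table's controls, but diabetic replicate 1 and control replicate 2 were nearly equal. The lowest array was control replicate 1. The log2 change was 0.19 ± 0.18 (SE, n = 3 per group), split as 0.24 (first table) and 0.088 (second table), at a limma adjusted p of 0.792. Without control replicate 1 it was 0.041. The spread between the first 2 control arrays, 0.46 on the log2 scale, exceeded the difference between the groups.

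**Figure D1:**
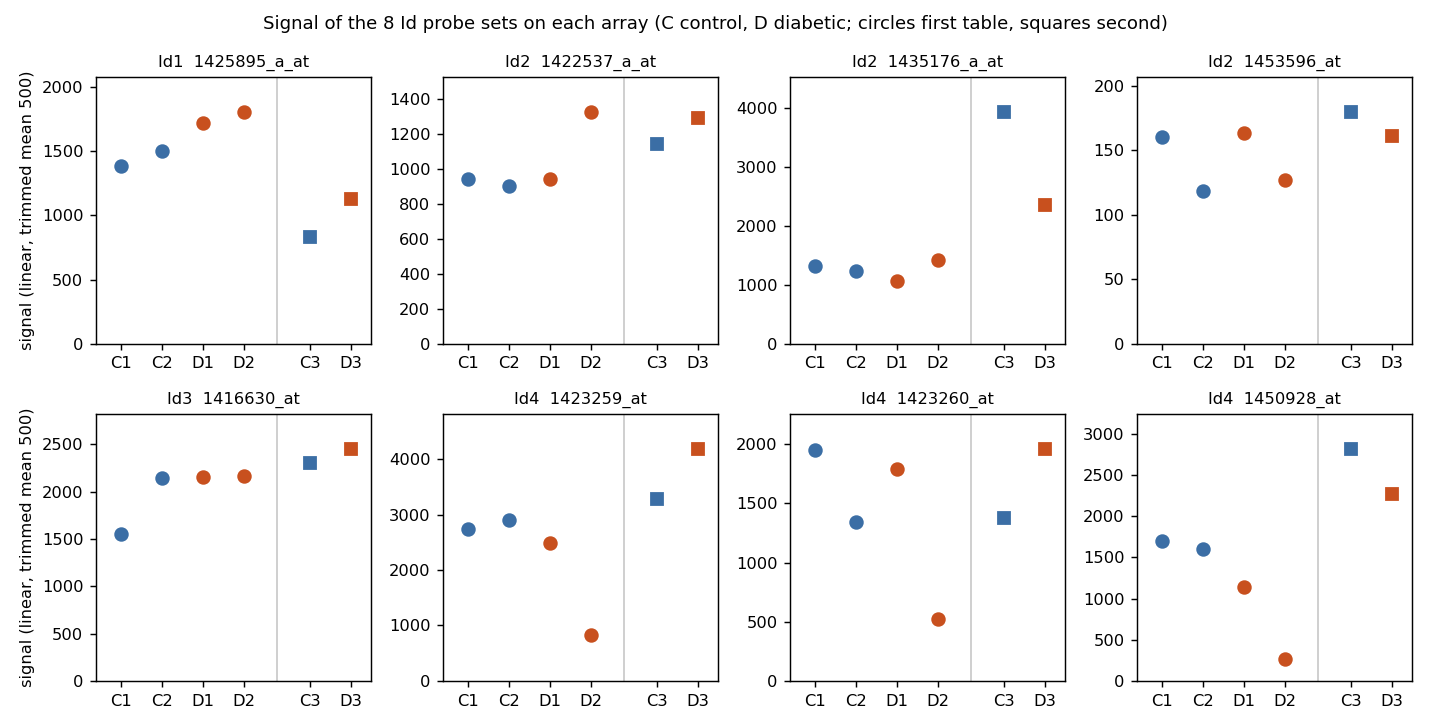
Signal (linear, each axis from 0) of the 8 Id probe sets on each array, with control arrays in blue, diabetic arrays in orange, first table as circles and second table as squares. Id1 is higher on the diabetic arrays of both tables, while all 3 Id4 probe sets have their lowest point on diabetic replicate 2, at 826, 521 and 271.

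Id2, which also binds the retinoblastoma protein, was read by 3 probe sets that did not move together. Probe set 1422537_a_at read 940, 900 and 1140 in the controls, and 939, 1325 and 1293 in the diabetic group. Its diabetic replicate 1 lay between the controls of the first table, so the groups overlapped there. Its log2 change was 0.24 ± 0.18 (SE, n = 3 per group), and 0.092 without diabetic replicate 2. Probe set 1435176_a_at, the one of highest mean signal, had 1314, 1236 and 3930 on controls and 1062, 1418 and 2355 on diabetic arrays. Here the direction was opposite, and the widest gap stood in the second table. Its log2 change was -0.28 ± 0.20, split as -0.053 (first table) and -0.73 (second table). Probe set 1453596_at was dim, with 118 to 180 on controls and 127 to 164 on diabetic arrays, and had -0.0099 ± 0.18. None of the 3 passed in limma, with adjusted p of 0.748, 0.743 and 0.994 in the order named. Over the 6 arrays, after centring within tables, the first of these probe sets correlated with the second at 0.081 and with the dim one at -0.38, so no single direction is given for Id2.

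Id4, the family member with the widest spread, was low on 1 diabetic array in all 3 of its probe sets. Probe set 1423259_at read 2736, 2910 and 3286 in the controls, and 2486, 826 and 4179 in the diabetic group. Probe set 1423260_at had 1949, 1342 and 1378 on controls and 1794, 521 and 1957 on diabetic arrays. Probe set 1450928_at had 1698, 1607 and 2813 on controls and 1140, 271 and 2275 on diabetic arrays. In each, diabetic replicate 2 was the lowest of the 6 arrays. That array stood at 29.2%, 31.6% and 16.4% of the control mean of its table in the order named. Diabetic replicate 1 stood at 88.1%, 109% and 69.0%, and diabetic replicate 3 at 127%, 142% and 80.9%. The SD over the diabetic arrays was 1677, 786 and 1005, against 281, 340.3 and 671 over controls. These SDs pool both tables, so they also hold the offset between tables. Within the first table, replicate 1 minus replicate 2 was 1.55, 1.72 and 1.95 in log2 for diabetic arrays. For controls it was -0.088, 0.53 and 0.078. Only 1450928_at had all diabetic arrays below the controls of their table.

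The log2 changes of the Id4 probe sets were -0.52 ± 0.39, -0.31 ± 0.42 and -1.10 ± 0.45 (SE, n = 3 per group). In limma the unadjusted p of 1450928_at was 0.0352, and 5.16% of tested probe sets had a smaller one. Over 14 distinct alternative fits it ran from 0.00679 to 0.147 and was under 0.05 in 7. Its adjusted p was 0.674, and those of the other probe sets were 0.748 and 0.858, so Id4 was not called. Without diabetic replicate 2 the changes were 0.044, 0.30 and -0.43, which turns the sign of the first pair. The 3 probe sets correlated with each other at 0.877 to 0.956 over the 6 arrays after centring within tables. Diabetic replicate 2, with log2 deviations of -1.73, -1.58 and -2.48 from its control mean, dominates these correlations. On diabetic replicate 1 the deviations were -0.18, 0.15 and -0.52, so their signs differed there. The first table alone gave -0.96, -0.72 and -1.50, and the second gave 0.34, 0.50 and -0.30. The difference between tables was 1.30 ± 0.78, 1.21 ± 0.88 and 1.20 ± 0.95 in a limma interaction fit, with adjusted p of 0.732 to 0.805. Across all probe sets that fit called 0% at an adjusted p under 0.05, and 7.51% had an unadjusted p under 0.05, none of the Id probe sets among them.

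**Figure D2:**
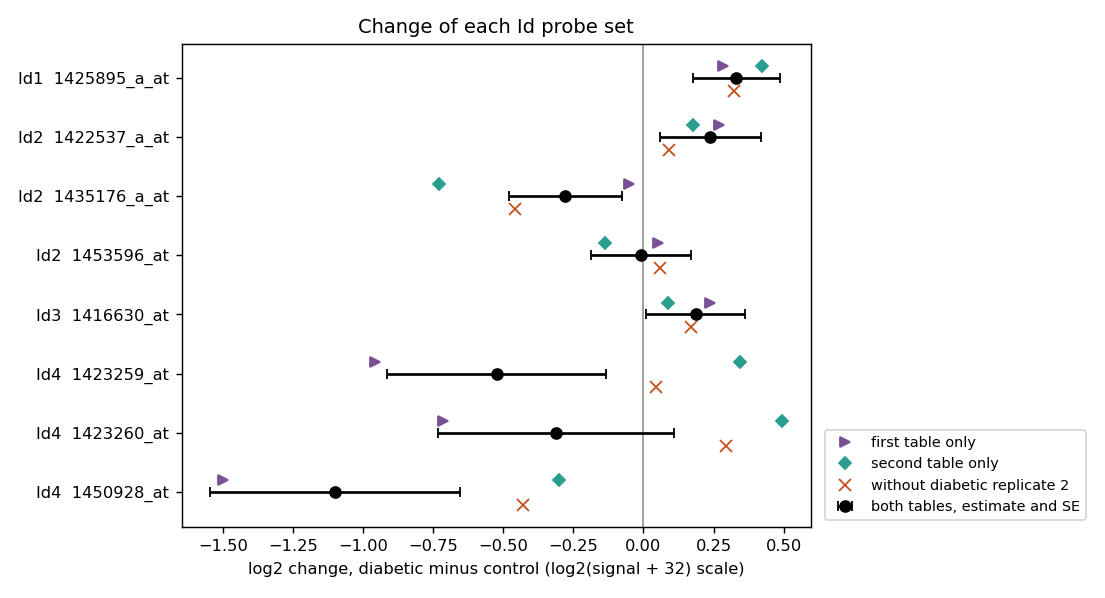
Log2 change (diabetic minus control) of each Id probe set, with the estimate over both tables and its SE in black, the first table as triangles, the second as diamonds, and the value without diabetic replicate 2 as crosses. Id1 stays between 0.29 and 0.42 in all 4, while Id4 runs from -0.96 to 0.34 for 1423259_at.

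The Id4 signals on diabetic replicate 2 were set beside all other probe sets on the same array. That array deviated most widely in general, with an SD of 0.44 over tested probe sets, against 0.34 and 0.39 on diabetic replicates 1 and 3. Only 25, 40 and 7 of 13754 tested probe sets lay further below their control mean than 1423259_at, 1423260_at and 1450928_at. Their log2 deviations were -1.73, -1.58 and -2.48, where 5% of all tested probe sets lay below -0.75. The 3 lowest of all on that array were the probe sets of Ttr, transthyretin of the choroid plexus, which were also the 3 lowest on diabetic replicate 1. On diabetic replicate 2 Id1 and Id3 were above their control means, by 0.32 and 0.24, and the Id2 probe set 1422537_a_at was above by 0.51. On diabetic replicates 1 and 3 every Id4 probe set was within the range of the middle 90% of probe sets. Fewer Id4-expressing cells and less Id4 RNA per cell cannot be told apart in whole brain RNA.

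**Figure D3:**
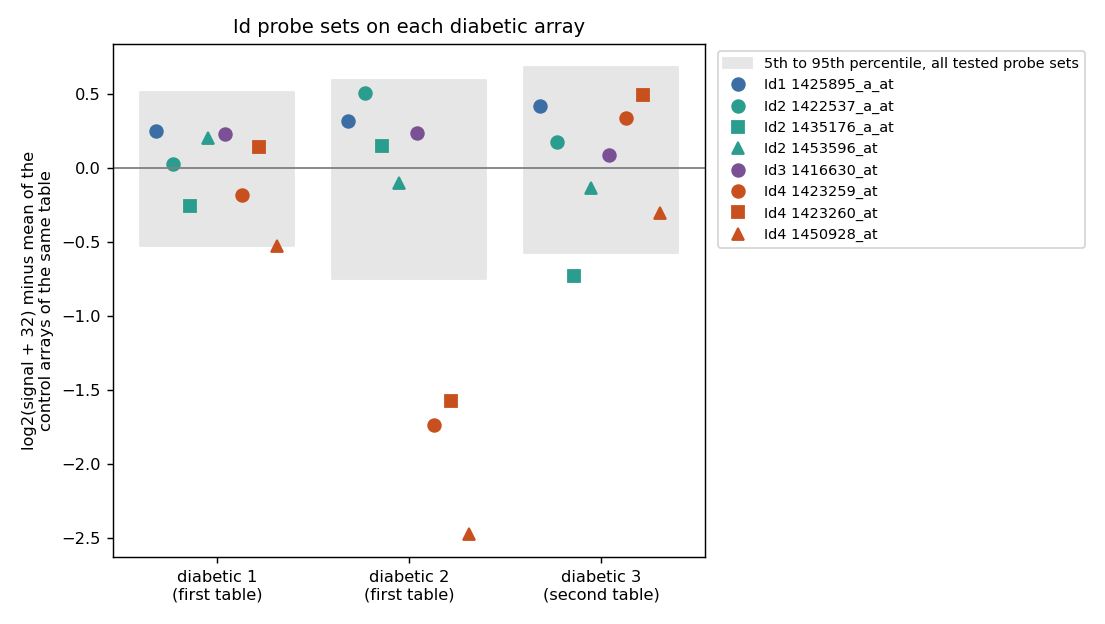
Log2(signal + 32) of each Id probe set on the 3 diabetic arrays, minus the mean of the control arrays of the same table, with grey bands from the 5th to the 95th percentile of all tested probe sets. The 3 Id4 probe sets lie at -1.73, -1.58 and -2.48 on diabetic replicate 2, below the band, where Id1 and Id3 lie above 0.

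Over the family, 3 of the 8 probe sets had a log2 change above 0 and 5 below, with a median of -0.14, against 51.0% above 0 and a median of 0.0050 over all tested probe sets. The diabetic arrays lay beyond the controls of their table on the higher side for 2 (Id1 and Id3), where 10.9% of all tested probe sets did so. They lay beyond on the lower side for 1 (Id4 1450928_at), where again 10.9% did, so that 3 of 8 compares with 21.7% for either side. With an unadjusted p under 0.05 in limma, 0 of the 8 were higher, against 3.32% of all tested probe sets, and 1 was lower, against 4.04%. None of the 8 passed the adjustment. These shares rest on few probe sets, several of which read the same transcript.

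The paralogs were then compared within arrays, by the difference of their log2 values, each gene being read by its brightest probe set on the log2 scale. All 6 pairs were tested by a two-sided exact permutation of the group labels within tables, which has 12 arrangements and cannot give a p below 0.167. Id1 against Id4 had a difference in log2 change of 0.86 ± 0.63 (SE, n = 3 per group), at an exact permutation p of 0.167. Per array it was 0.43, 2.05 and 0.081 on diabetic replicates 1 to 3, so every diabetic array was on the same side while their sizes differed widely. With the other Id4 probe sets it was 0.64 and 1.43. Id1 against Id2 had 0.61 ± 0.26, with 0.51, 0.17 and 1.16 per array and the same exact permutation p. Id3 against Id4 had 0.71 ± 0.66, with 0.41, 1.97 and -0.26 per array. Id2 against Id3 had -0.47 ± 0.27, at an exact permutation p of 0.333. With Id2 read by 1422537_a_at, Id1 against Id2 became 0.093 and Id2 against Id3 became 0.052. These swaps of probe set were chosen after seeing the data. Id2 against Id4 had 0.25 ± 0.85, and Id1 against Id3 had 0.14 ± 0.14, the difference of narrowest error. Adjusted over the 6 pairs, the exact permutation p ran from 0.5 to 0.833. Without diabetic replicate 2 Id1 against Id4 had 0.28 and Id3 against Id4 had 0.13.

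For each Id gene the 5 genes of most similar pattern were taken by Pearson correlation over the 6 arrays, centred within tables, among 8623 genes. With so few points, which share their arrays and scaling, high values arise easily. The choice also fixes that these genes follow the Id gene on these arrays, so their values are a description and carry no test. Nearest to Id1 were Stxbp2, Pabpc4, Rnf126, Psmc1 and Padi2, at 0.994 to 0.998. Rnf126, a ubiquitin ligase, read 729, 811 and 343 on controls and 1085, 1226 and 606 on diabetic arrays, and its log2 change was 0.63 ± 0.16 (SE, n = 3 per group). Pabpc4, a poly(A)-binding protein, had a log2 change of 0.44 ± 0.16. Nearest to Id3 were Dhrs7b, Fndc10, Rps2, Ap2b1 and Daxx, with correlations between 0.9956 and 0.9995. Nearest to Id2, through 1435176_a_at, were Armc1, Cops9, Wwp1, Aco1 and Arap1, at 0.991 to 0.997. Nearest to Id4, through 1423259_at, were Rpf1, Nsg1, Akap10, C1ql3 and Sptlc1, at 0.994 to 0.999. Nsg1, an endosomal protein of neurons, had 1835, 1899 and 1234 on controls and 1793, 1036 and 1353 on diabetic arrays. C1ql3, a secreted synaptic protein, had 324, 320 and 134 on controls and 274, 112 and 153 on diabetic arrays. Rpf1, the nearest of the 5, had 619, 628 and 749 on controls and 610, 443 and 798 on diabetic arrays. Akap10 had 211, 220 and 125, and 188, 76.5 and 168. Sptlc1 had 952, 922 and 533, and 858, 546 and 597.

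The E proteins, which Id proteins bind directly, were all measured. Tcf4, also called E2-2, read 1705, 1143 and 2024 on controls and 1020, 923 and 1234 on diabetic arrays, which do not overlap within tables. Its log2 change was -0.57 ± 0.19 (SE, n = 3 per group), with a limma unadjusted p of 0.0144 and an adjusted p of 0.641. Its other probe sets had -0.49, -0.22, 0.030 and 0.084, so they do not share 1 direction. Tcf12, also called HEB, had -0.27 ± 0.17, and 0.17 for its other probe set. Tcf3, which encodes E12 and E47, had 0.32 ± 0.18, with 0.18 and 0.36 for its others. Of the 3 E proteins 1 was above 0 and 2 below, and 0 passed the adjustment in limma.

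The neural bHLH activators, whose pairing with E proteins is the step that Id proteins block, had 4 of 13 tested members above 0 and 9 below. Their median was -0.12 and 0 passed the adjustment in limma. Neurod1, a factor of newborn neurons, had 430, 648 and 615 on controls and 450, 287 and 390 on diabetic arrays. Its log2 change was -0.55 ± 0.22 (SE, n = 3 per group), with an unadjusted p of 0.0331 and an adjusted p of 0.674 in limma. Neurog2, a proneural factor, had 468, 659 and 624 on controls and 420, 148 and 923 on diabetic arrays. Diabetic replicate 2 was thus its lowest array, as for Id4. Its change was -0.52 ± 0.40 and became 0.017 without that array. Neurod4, another neuronal bHLH factor, had -0.38 ± 0.32 and became 0.051 without it. Olig1, of the oligodendrocyte and ventral progenitor lineage, had -0.21 ± 0.16. The list's median deviations were 0.17, -0.46 and -0.042 on diabetic replicates 1 to 3. Myod1, the 1 tested myogenic bHLH factor and a marker of muscle, had -0.50 ± 0.18 at signals of 61.0 to 177.

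Hes and Hey repressors, bHLH factors many of which act downstream of Notch, had 3 of 5 tested members above 0, with a median of 0.069. Hes1 had 0.32 ± 0.23 (SE, n = 3 per group), Hey1 0.28 ± 0.21, Heyl 0.069 ± 0.16 and Hes6 -0.093 ± 0.23. Hes6 had 0.14 for its other probe set and 0.18 without diabetic replicate 2. None of these passed in limma.

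**Figure D4:**
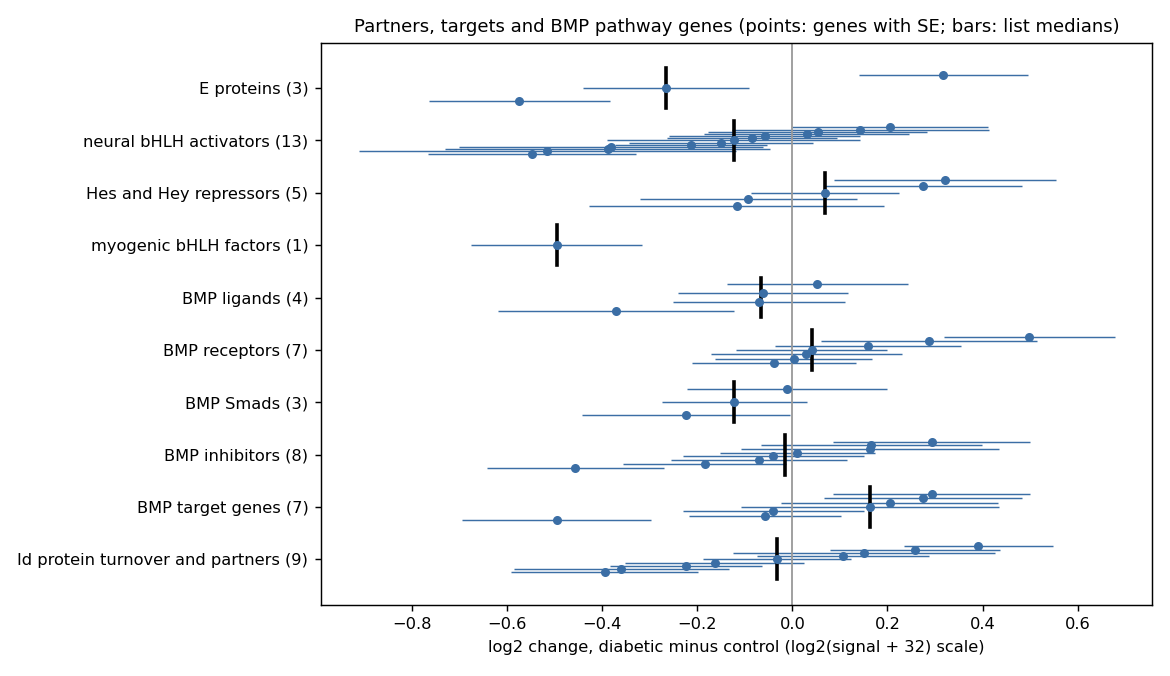
Log2 change (diabetic minus control) of each tested gene with its SE, in lists of Id partners, BMP pathway genes and Id regulators, with the number of tested genes in brackets and list medians as black bars. The medians lie between -0.50, for the single myogenic gene, and 0.16, for the BMP targets, and no gene passed the adjustment.

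The BMP pathway was described from ligand to target. Of the 4 tested ligands 1 was above 0. Bmp4, a dorsal midline ligand, had -0.37 ± 0.25 (SE, n = 3 per group), split as -0.70 (first table) and 0.28 (second table). Bmp5, Bmp6 and Bmp7 lay between -0.070 and 0.053, and both other Bmp7 probe sets had values above 0, 0.13 and 0.26. Of the 7 receptors and co-receptors 6 were above 0, with a median of 0.040, and Acvrl1, a receptor of vessel walls, had 0.50 ± 0.18. Its signals were 138, 165 and 32.7 on controls and 245, 179 and 71.9 on diabetic arrays, which do not overlap within tables (limma unadjusted p = 0.0216, adjusted p = 0.641). Acvr2b had 0.29 ± 0.23, Eng, the co-receptor endoglin, 0.16 ± 0.20 and Acvr2a 0.040 ± 0.16. Of the 4 Smads that carry the signal, Smad9 was not tested because its mean signal was 48.8. The 3 tested ones were below 0, with -0.12 ± 0.15 for Smad1, -0.22 ± 0.22 for Smad4 and -0.011 ± 0.21 for Smad5, which had 0.0073 under quantile normalization. Both other Smad4 probe sets had positive values, 0.098 and 0.058.

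Inhibitors of the pathway were divided, with 4 of 8 above 0 and a median of -0.015. Nbl1, a secreted BMP antagonist, had -0.46 ± 0.19 (SE, n = 3 per group), with 149, 116 and 151 on controls and 91.6, 64.1 and 127 on diabetic arrays (limma unadjusted p = 0.0365, adjusted p = 0.674). Smad6, an inhibitory Smad that is itself a target, had 0.29 ± 0.21, Grem1 0.17 ± 0.23 and Chrd, chordin, -0.18 ± 0.17. Of the 7 other BMP targets tested 4 were above 0, with a median of 0.16, split as 0.32 (first table) and -0.23 (second table). Smad6, Smad7 and Bambi were counted both as inhibitors and as targets. The dorsal gene Msx1 had -0.50 ± 0.20, on the opposite side from Id1, with 1272, 968 and 694 on controls and 915, 619 and 516 on diabetic arrays. Its limma unadjusted p was 0.0341 and its adjusted p 0.674. Msx3 had 0.20 ± 0.23, and -0.030 without diabetic replicate 1. In none of these lists did a gene pass the adjustment in limma.

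Among genes of Id protein turnover and partners outside the bHLH family, 4 of 9 were above 0, with a median of -0.033. Fzr1, the adaptor by which the anaphase-promoting complex degrades Id proteins, had 768, 885 and 661 on controls and 1050, 1087 and 916 on diabetic arrays. Its groups did not overlap within tables, and its log2 change was 0.39 ± 0.16 (SE, n = 3 per group, limma unadjusted p 0.0343, adjusted p 0.674). Rbl1, a relative of the retinoblastoma protein, had -0.40 ± 0.20, Ets2, a transcription factor that Id proteins can bind, -0.36 ± 0.23, and Pax8 0.26 ± 0.18. None passed the adjustment.

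Markers of cell types that could carry Id transcripts were read on the same arrays. Roof plate and choroid plexus markers, 10 genes, had summed signals of 4283 to 5704 in controls and 2608 to 3639 in the diabetic group, which do not overlap. Of 9 tested genes 3 were above 0 and 6 below, with a median of -0.13. Ttr among them had 1149, 1114 and 3003 in controls and 121, 11.4 and 1251 in the diabetic group, the lowest again being diabetic replicate 2. Without Ttr, a step added after seeing the data, the sums were 3537, 3169 and 2701 in controls and 3029, 2597 and 2388 in the diabetic group. These ranges overlap when the tables are pooled, but each diabetic array was below the controls of its table. Mesenchyme and meninges markers had 17658, 18045 and 22274 in controls and 14919, 14463 and 18452 in the diabetic group, which do not overlap within tables. All 14 tested genes were below 0 over both tables, with a median of -0.29. In single tables this did not hold for Lum, Dcn and Pdgfra, at 0.65, 0.41 and 0.014 in the second, and Twist1, at 0.022 in the first. The other probe set of Sparc had 0.039 and that of Pdgfra -0.00044, against -0.41 and -0.42 for those used. Endothelial markers had 5621, 5166 and 3855 in controls and 5049, 4649 and 4158 in the diabetic group over 16 genes. The diabetic sums were lower in the first table and higher in the second. Of 14 tested endothelial genes 6 were above 0, with a median of -0.018. Plvap, a protein of vessel wall openings, had 241, 244 and 267 in controls and 371, 384 and 407 in the diabetic group. Fli1, an endothelial and blood cell transcription factor, lay the other way, with 448, 482 and 771 in controls and 355, 210 and 420 in the diabetic group. These are the members of smallest p on either side of 0. Neuron markers had 16202 to 18649 in controls and 12926, 9059 and 21417 on diabetic replicates 1 to 3 over 12 genes, so the array of lowest Id4 was also the lowest here. Of the 12 genes 1 was above 0 and 11 below, with a median of -0.29, split as -0.58 (first table) and 0.16 (second table). Ina, a neuronal intermediate filament, had 1414, 1273 and 2357 in controls and 1000, 492 and 1703 in the diabetic group. It was thus lower in both tables, unlike the list median. Progenitor markers had 26796 to 32518 and 31261 to 32253 over 12 genes, with diabetic replicate 2 at 31261. Among them Fabp7, the brain fatty acid binding protein of radial glia, had 3042, 3152 and 5593 in controls and 2082, 1341 and 5152 in the diabetic group, and Sox1, a progenitor transcription factor, had 83.0, 112.5 and 47.3, and 179.7, 160.2 and 87.2. Of the 12 genes 6 were above 0 and 6 below, with median deviations of 0.037, -0.11 and 0.082 on diabetic replicates 1 to 3. Vim, an intermediate filament gene, gave 15388 of the summed progenitor signal on diabetic replicate 2. Its log2 change was 0.28 ± 0.18, with -0.15 and -0.065 for its other probe sets. The log2 changes of Fabp7 and Sox1 were -0.62 ± 0.23 and 0.63 ± 0.17 (SE, n = 3 per group), on opposite sides of 0. Surface epithelium markers had 3485, 2966 and 2351 in controls and 3479, 3771 and 2023 in the diabetic group over 10 genes. Of 9 tested genes 5 were above 0, with a median of 0.050. Macrophage markers had 1987, 1841 and 1233 in controls and 1596, 1166 and 1317 in the diabetic group over 10 genes. The diabetic sums were lower in the first table and higher in the second. Of 7 tested macrophage genes 2 were above 0 and 5 below, with a median of -0.25. No marker was at 0 on any array, and the part of these cell types in the Id values was not tested.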

How the data were processed

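The authors deposited probe set intensity values, linear and scaled by array, from GCOS per the submitters' processing notes, with its version, algorithm and settings not given in the sources used here. Chip types come from the deposited run settings, per the file headers, which also gave 6 distinct scan days for the 6 arrays, so scan day could not be a block. Of 20380 probe sets that name 1 gene, 13754 had a mean signal of at least 100. Each array was set to a trimmed mean of 500 (2% removed at each end) before log2(signal + 32) was taken, which understates changes of low signals. Under R 4.3.3, limma 3.58.1 compared the groups by lmFit and eBayes, with a term for the value table, 3 residual degrees of freedom, two-sided tests and Benjamini-Hochberg adjustment at 0.05. The fit was tested on simulated data with known changes before use. Precision is limited by how few arrays there are, the median SE of a log2 change being 0.18. Alternatives were other pseudocounts, filters, normalization, blocks, weights and left-out arrays.

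The Id genes and the 18 gene lists were chosen with earlier results of these data known. Each listed gene was read by its brightest probe set on the log2 scale. Named genes were every Id probe set, up to 4 tested genes of smallest p from each list, and the 5 genes nearest to each Id gene. Deviations from group means correlated at 0.433, 0.436 and 0.733 between same-numbered arrays and at -0.652 to 0.555 between arrays of different numbers. Replicate 3 is the second table, and within the first table the same-number correlation was 0.0051.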

Additional observations from a re-analysis of the deposited data

How the results depend on the processing

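Leaving out either array of the second table gives the same fit as the first table alone, so 17 alternatives were 15 distinct fits. In these the Id probe sets never passed the adjustment in limma, with a smallest adjusted p of 0.492 among 115 values, and 6 of these values changed sign. The unadjusted p was under 0.05 in 3 of 15 fits for Id1, 1 of 15 for Id2 1435176_a_at, 7 of 14 for Id4 1450928_at, and none for the other Id probe sets. The dim Id2 probe set 1453596_at had 0.15 with array weights and 0.053 in the first table alone. With 1 array left out in turn, Id1 ran from 0.29 to 0.38, Id2 from 0.092 to 0.37 (1422537_a_at), -0.46 to -0.053 (1435176_a_at) and -0.13 to 0.074 (1453596_at), and Id3 from 0.041 to 0.30. Id4 ran from -0.96 to 0.044 (1423259_at), -0.72 to 0.30 (1423260_at) and -1.54 to -0.43 (1450928_at). Id2 against Id4 ran from -0.50 to 0.90, and Id2 against Id3 was 0.052 with Id2 by 1422537_a_at. Over all tested probe sets limma made 1 call with array weights and 3 in the first table alone, and 0 to 3 with 1 array left out, the 3 again being the first table alone. Unadjusted p under 0.05 counted 147 of 13754 probe sets (1.07%) with no term for the table. With 1 probe set for each gene it counted 659 of 8627 (7.64%), a share near the 7.36% of all tested. It counted 692 to 1280 with 1 array left out. The progenitor median was -0.082 in the first table alone. With 1 array left out, medians ran from -0.082 to 0.18 for progenitors, -0.39 to -0.15 for E proteins, -0.039 to 0.19 for BMP receptors and -0.030 to 0.32 for BMP targets.

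Among 84 named genes, 17 changed sign with 1 array left out, 10 of them without diabetic replicate 2. Their ranges were -0.034 to 0.11 for Acvr2a, -0.68 to 0.055 for Akap10, -0.14 to 0.0052 for Arap1, -0.090 to 0.17 for Bmp5, -0.19 to 0.030 for Bmp6, -0.23 to 0.042 for Bmp7, -0.54 to 0.064 for Cx3cr1, -0.039 to 0.32 for Eng, and -0.099 to 0.38 for Grem1. They were -0.29 to 0.18 for Hes6, -0.030 to 0.37 for Msx3, -0.77 to 0.051 for Neurod4, -1.04 to 0.017 for Neurog2, -0.44 to 0.023 for Nsg1, -0.25 to 0.021 for Rpf1, -0.42 to 0.051 for Smad4 and -0.29 to 0.17 for Smad5. Quantile normalization gave -0.013 for Hbb-bh1 and 0.0073 for Smad5. Array weights gave 0.098 for Bmp6, 0.059 for Bmp7 and 0.0026 for Hes6. The first table alone gave 0.0052 for Arap1, 0.0061 for Bmp6, 0.014 for Bmp7, -0.039 for Eng and 0.051 for Smad4. The cause was not tested.

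With the replicate number as a block, Id4 1450928_at had -1.10 with a limma unadjusted p of 0.0156 (range over its 14 fits 0.00679 to 0.147), 988 probe sets had an unadjusted p under 0.05, and the adjustment left 0 calls, so no call changed. Signal over background was not analysed here.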
